A study of Arabidopsis thaliana with 16 samples.

Results

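UGT73B4, UGT73B5 and GT72B1 are 3 Arabidopsis genes for UDP-glycosyltransferases, chosen by the size of their signals with hydrogen peroxide (H2O2) against 0 mM on these same arrays. The array annotation gave each gene 1 probe set of its own, 265501_at for UGT73B4, 265499_at for UGT73B5 and 255622_at for GT72B1. They are 3 of the 13513 probe sets annotated to a single gene, and GT72B1 is the gene also written UGT72B1. Whole seedlings of wild-type ecotype Col, 12 days old and grown in liquid medium, received H2O2 at 0, 1, 5, 25, 50 or 100 mM in darkness. After 30 min they were also given 1 µM epi-brassinolide (BL), a brassinosteroid growth hormone, or ethanol as its solvent, for 1 h, with the H2O2 left in place. At 0 mM there were 3 Affymetrix arrays with BL and 3 with solvent. Each of the 5 higher doses had 1 array with BL and 1 with solvent, so 16 arrays covered 12 groups. The labels do not say whether replicates are separate cultures, so a p-value measures only the spread between these arrays.

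UDP-glycosyltransferases move a sugar, most often glucose, from a UDP-sugar onto small acceptor molecules such as hormones, phenolics and foreign chemicals. The added sugar makes the acceptor more soluble and usually less active, and the conjugate can then be stored in the vacuole. UGT73B4 and UGT73B5 belong to group D of the plant family and are known for responses to pathogens and oxidative stress. UGT73B4 can also conjugate breakdown products of the explosive trinitrotoluene. GT72B1 belongs to group E, conjugates chlorinated phenols and anilines, and also takes part in glucosylating lignin precursors. Brassinosteroids themselves are inactivated by glucosylation, for example by UGT73C5, a relative of UGT73B4 and UGT73B5 in group D. No gene-specific probe set was annotated to UGT73C5, which was not analysed here.

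UGT73B4 and UGT73B5 are neighbours on chromosome 2 in the TAIR10.1 gene table, as AT2G15490 and AT2G15480. The annotated span of UGT73B5 contains the whole span of UGT73B4, so signal from a transcript running through both cannot be assigned to one of them. GT72B1 is AT4G01070 on chromosome 4. Next to UGT73B4 on its other side, AT2G15500 stayed near the floor of the arrays, with a mean log2 signal of 2.23 ± 0.26 (SD, n = 6) at 0 mM and 2.12 at both 1 and 100 mM. Near GT72B1, the thylakoid rhodanese-like gene TROL had a mean log2 signal of 11.28 ± 0.60 (SD, n = 6) at 0 mM and 11.22 at 1 mM (log2 difference -0.06, limma adjusted p = 0.915). On the other side of GT72B1, AT4G01090 had 6.05 ± 0.55 (SD, n = 6) at 0 mM and 6.91 at 1 mM, a log2 difference of 0.86 (SE 0.30, limma adjusted p = 0.0653).

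The arrays report log2 signals made with GCRMA, whose lowest value was 2.12 on all 16 arrays. Pairs of arrays at 1 dose above 0 mM had Pearson correlations of 0.987 to 0.995 across probe sets. Solvent replicate 3 at 0 mM stood apart, with correlations of 0.816 to 0.907 to the other 0 mM arrays, which correlated with one another at 0.958 to 0.990. BL tests that rest on it, and the differences from 0 mM at 1 and 100 mM of the 3 genes, are given with and without it. The 3' minus 5' difference of 6 pairs of control probe sets was 1.40 to 1.60 on the log2 scale at 0 mM, 1.51 to 1.55 at 1 mM and 1.88 to 2.03 at 100 mM. Of 17 shoot and root marker genes, 5 had a probe set of their own. RCA and LHCB4.1, which mark photosynthetic tissue, had mean log2 signals of 14.42 and 14.00 at 0 mM, and the root gene PYK10 had 13.29. PYK10 was also the marker whose signal rose over the H2O2 doses, by a fitted 0.95 on the log2 scale from 1 to 100 mM (SE 0.09, limma adjusted p = 3.49e-05). The root-hair expansin genes EXPA7 and EXPA18 had means of 4.08 and 4.02 at 0 mM, did not pass the filter on low values, and were near the floor with H2O2, where no array was above 2.28. The part of these markers in the results on the 3 genes was not tested. In whole seedlings, fewer cells of a type and less RNA per cell cannot be told apart.

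All 3 genes were far higher on the H2O2 arrays than at 0 mM, and for each of them the lowest H2O2 array lay above the highest 0 mM array. This contrast chose the genes, so its values describe them and were not tested. UGT73B4 had log2 signals of 2.45, 2.37 and 4.80 in solvent replicates 1, 2 and 3 at 0 mM, and of 2.14, 2.12 and 2.12 with BL. All of these except solvent replicate 3 lay within 0.5 of the floor, so UGT73B4 was close to undetected without H2O2. With H2O2 and solvent it had 8.64, 8.27, 7.66, 7.07 and 7.10 at 1, 5, 25, 50 and 100 mM. With H2O2 and BL it had 7.80, 7.83, 7.68, 7.05 and 6.50. The 10 H2O2 arrays and the 6 arrays at 0 mM were separated by 1.70.

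UGT73B5 was measurable without H2O2 and varied most there. Its log2 signals were 7.41, 6.15 and 8.97 in the solvent replicates and 5.10, 5.05 and 4.59 in the BL replicates at 0 mM. With solvent it had 11.95, 11.00, 10.22, 9.49 and 9.56 at rising doses from 1 to 100 mM. With BL it had 11.58, 11.19, 10.22, 9.70 and 9.09. Only 0.12 separated the lowest of these, 100 mM with BL, from solvent replicate 3 at 0 mM.

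GT72B1 had the tightest 0 mM values, 7.15, 7.18 and 6.99 with solvent and 6.65, 6.27 and 6.32 with BL. It had 11.86, 11.67, 10.87, 10.47 and 10.15 with H2O2 and solvent, and 11.53, 11.76, 10.93, 10.57 and 10.10 with H2O2 and BL. The gap between its lowest H2O2 array and its highest 0 mM array was 2.91. Of all 13140 probe sets tested, 4.21% had every H2O2 array above every 0 mM array, and all 3 genes did, by the way they were chosen.

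**Figure D1:**
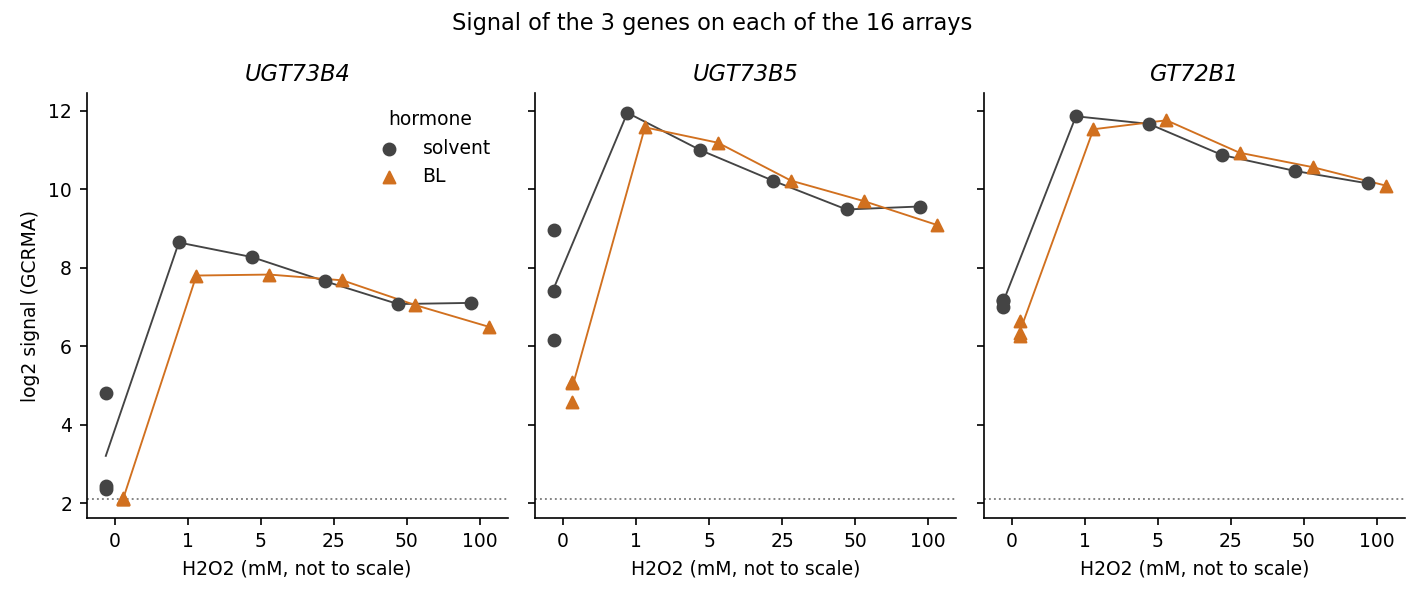
Log2 signal of UGT73B4, UGT73B5 and GT72B1 on each of the 16 arrays against the H2O2 dose, with circles for solvent, triangles for BL, lines through the group means and a dotted line at the lowest value on the arrays, 2.12. The H2O2 arrays of each gene lie above its 0 mM arrays, and the 0 mM values of UGT73B5 spread from 4.59 to 8.97.

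The difference from 0 mM was largest at the low doses. At 1 mM, in a limma fit to all 16 arrays with BL as an additive term, UGT73B4 was higher by a log2 of 5.56 (SE 0.52). UGT73B5 was higher by 5.55 (SE 0.78), or 46.9-fold, and GT72B1 by 4.93 (SE 0.20), or 30.6-fold. At 100 mM the differences were 4.14 for UGT73B4, 3.11 for UGT73B5 (8.65-fold) and 3.36 for GT72B1 (10.3-fold). No fold or rank is given for UGT73B4, since 5 of its 6 values at 0 mM lay within 0.5 of the floor and its differences have no measured base. Among the 13140 probe sets UGT73B5 and GT72B1 ranked 11 and 23 by the size of the difference at 1 mM, and 46 and 29 at 100 mM. The genes were chosen by this contrast, so high ranks were fixed by the choice. Without solvent replicate 3 the differences at 1 mM were 5.95, 6.04 and 4.95, and those at 100 mM were 4.53, 3.60 and 3.38.

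**Figure D2:**
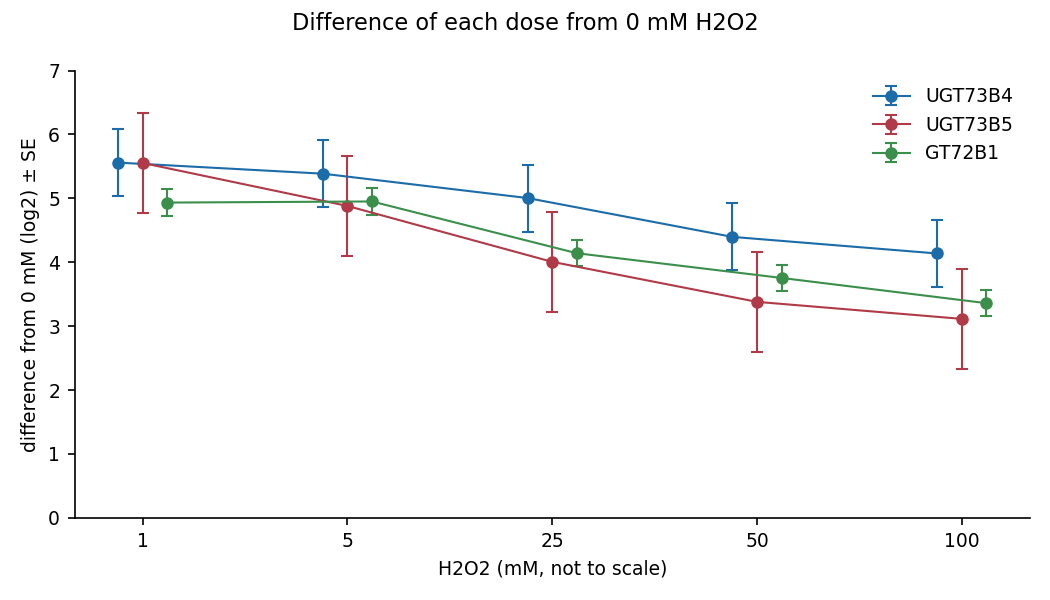
Log2 difference of each H2O2 dose from 0 mM (points, with the standard error as bars) for the 3 genes, from the limma fit to all 16 arrays, on an axis of doses that is not to scale. The largest differences are at 1 and 5 mM, from 4.88 to 5.56, and those at 100 mM are 3.11 to 4.14, where the values of UGT73B4 start from the floor of the arrays.

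Once H2O2 was present, signals of all 3 genes were lower at the high doses than at the low ones, with and without BL. For UGT73B5 the fitted change in log2 signal from 1 to 100 mM was -2.52 (SE 0.17), or -2.54 on the solvent arrays and -2.49 on the BL arrays. UGT73B4 had -1.44 (SE 0.23) and GT72B1 -1.65 (SE 0.21). These fits use the 10 H2O2 arrays, which also chose the genes, and were not tested. The median over all 13140 probe sets was 0.06, and 0.860% of them had a more negative value than UGT73B5, 3.58% than UGT73B4 and 2.79% than GT72B1. The 3' minus 5' difference of the control probe sets increased over the same doses, and its part in these changes was not tested.

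The order of the doses was not the same for each gene where neighbouring doses lay close. UGT73B5 at 1 mM, with 11.58 and 11.95, was above 5 mM, with 11.00 and 11.19. UGT73B4 and GT72B1 did not separate these doses, since the values at 5 mM lay between those at 1 mM. From 5 to 25 mM and from 25 to 50 mM no values of neighbouring doses overlapped for any of the 3 genes. At 50 and 100 mM the values of UGT73B4 overlapped, as did those of UGT73B5, while GT72B1 had 10.47 and 10.57 at 50 mM against 10.10 and 10.15 at 100 mM.

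Over the 10 H2O2 arrays, UGT73B5 and GT72B1 had a Pearson correlation of 0.960 (Spearman 0.952), UGT73B4 and GT72B1 of 0.917 (0.939), and UGT73B4 and UGT73B5 of 0.915 (0.915). The arrays share the order of doses, so these values describe a common course and nothing closer. The neighbouring genes UGT73B4 and UGT73B5 had the lowest of these 3 values. Over the 6 arrays at 0 mM they had the highest, 0.870 against 0.722 and 0.397, where UGT73B4 lay near the floor on all but solvent replicate 3.

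Without H2O2, UGT73B5 and GT72B1 had lower values with BL, but neither passed the test across all probe sets. This comparison of BL with solvent took no part in choosing the genes. UGT73B5 averaged 4.91 ± 0.28 (SD, n = 3) with BL against 7.51 ± 1.41 (SD, n = 3) with solvent, a log2 difference of -2.60 (SE 0.69, 95% confidence interval -4.28 to -0.92, limma adjusted p = 0.502). GT72B1 averaged 6.42 ± 0.21 against 7.11 ± 0.10, a difference of -0.70 (SE 0.17, interval -1.102 to -0.289, limma adjusted p = 0.502). UGT73B4 had all its BL values and solvent replicates 1 and 2 within 0.5 of the floor, so its BL response at 0 mM could not be measured and no difference is read from it.

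At 0 mM the BL arrays lay below the solvent arrays without overlap for UGT73B5 and GT72B1, with and without solvent replicate 3, which was so for 7.82% of all probe sets, and for 10.8% without solvent replicate 3. By limma, neither was called, against 0.0228% of all probe sets. Unadjusted p-values of the limma fit were 0.00902 for UGT73B5 and 0.00571 for GT72B1, where 9.23% of all probe sets had one under 0.05. Without solvent replicate 3 the log2 difference of UGT73B5 was -1.87 (SE 0.38, limma adjusted p = 0.187) and that of GT72B1 was -0.75 (SE 0.16, limma adjusted p = 0.197). Taken from the fit to all 16 arrays, the GT72B1 difference of -0.70 (SE 0.13) just passed, at a limma adjusted p of 0.0499. In that fit 100 of 13140 probe sets were called, against 3 in the fit to the 0 mM arrays.

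With H2O2 present, no BL difference passed the test. GT72B1 had a mean BL minus solvent difference of -0.03 ± 0.18 (SD, n = 5 doses), higher with BL at 3 doses and lower at 2, with an interval from the 16-array limma fit of -0.26 to 0.20. UGT73B5 had -0.09 ± 0.32 (SD, n = 5 doses), also higher at 3 and lower at 2, with an interval of -1.01 to 0.84. UGT73B4 had -0.38 ± 0.37 (SD, n = 5 doses), lower with BL at 4 doses, the most at 1 mM with -0.84, and an interval of -1.27 to 0.51. Without solvent replicate 3, which enters this fit only through its spread, the interval of UGT73B4 was -0.65 to -0.12, which excludes 0. That array widens the interval of UGT73B4, with an SE of 0.40 with it and 0.12 without it. The other UGT73B4 values at 0 mM lay near the floor and add little spread to either fit. The narrower interval is therefore not read as a BL difference. Without that array the interval of UGT73B5 was -0.57 to 0.40 and that of GT72B1 -0.24 to 0.19, and the limma adjusted p was 0.999 for each gene. With all arrays the limma adjusted p was 1.00 for each gene, and 0 of 13140 probe sets were called, with 0.928% at an unadjusted p under 0.05.

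The BL difference with H2O2 minus that without it was 2.51 for UGT73B5 (SE 0.68, interval 1.00 to 4.02, limma adjusted p = 0.257). It was 0.67 for GT72B1 (SE 0.17, interval 0.29 to 1.04, limma adjusted p = 0.242). For UGT73B4 it could not be measured, since its BL response at 0 mM lay at the floor. Neither of the other genes was called, where 0.0609% of all probe sets were. Unadjusted limma p-values were 0.00391 for UGT73B5 and 0.00265 for GT72B1, where 16.2% of all probe sets lay under 0.05. UGT73B5 reached 3.19 (limma adjusted p = 0.0043) without solvent replicate 2, where 1786 probe sets were called against 8 with all arrays. It had 1.78 (limma adjusted p = 0.0736) without solvent replicate 3, where 110 were called. GT72B1 had 0.73 (limma adjusted p = 0.0875) without solvent replicate 3.

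**Figure D3:**
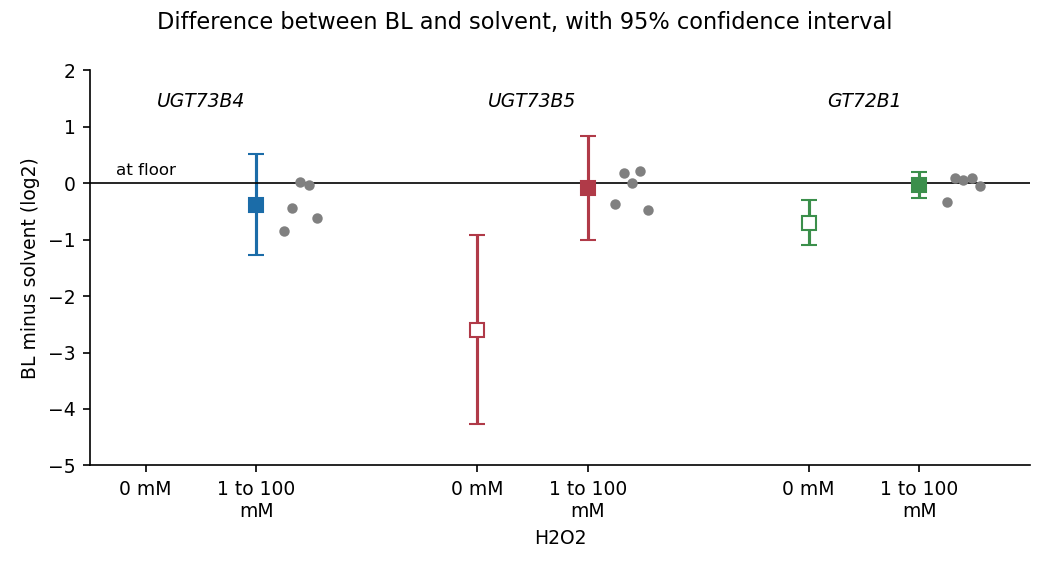
BL minus solvent on the log2 scale for UGT73B5 and GT72B1 at 0 mM H2O2 (open squares, 3 arrays against 3) and for the 3 genes over the 5 doses from 1 to 100 mM (filled squares), with 95% confidence intervals from limma, and grey points for each single dose in order of dose. At 0 mM the values are -2.60 for UGT73B5 and -0.70 for GT72B1, with none drawn for UGT73B4, which lay at the floor. With H2O2 the intervals of all 3 genes span 0. That of UGT73B4 does not without solvent replicate 3. That array widens the interval drawn, and the other 0 mM values of UGT73B4 lie near the floor and add little spread.

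No difference between the slopes with and without BL passed the test. The fitted change from 1 to 100 mM with BL minus that with solvent was 0.05 for UGT73B5 (SE 0.35, interval -0.75 to 0.85), 0.28 for GT72B1 (SE 0.43, interval -0.69 to 1.25) and 0.51 for UGT73B4 (SE 0.45, interval -0.50 to 1.51). All 3 had a limma adjusted p of 0.999, and no probe set was called, with 3.18% at an unadjusted p under 0.05. Each of the 3 values turned negative when the 1 mM BL array was left out.

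Among relatives in the same families, 3 genes could be tested, and 1 rose at 1 mM while another fell. Over all probe sets at 1 mM, 9.60% were called higher and 10.5% lower. Of 11 other UGT73 genes, 5 had a probe set of their own and 1, UGT73B1, passed the filter of a log2 signal of at least 5 on at least 2 arrays. UGT73B1 ranged from 8.63 to 9.33 at 0 mM and from 9.74 to 10.51 with H2O2, without overlap, as did 4.21% of all probe sets in that direction. It rose by 1.55 at 1 mM (SE 0.17, limma adjusted p = 0.000113). It was also called higher at 5, 25 and 50 mM, by 1.15, 0.86 and 0.94, where 9.75%, 8.19% and 7.40% of all probe sets were called higher. At 100 mM it rose by 0.90 (limma adjusted p = 0.0048), where 8.24% of all probe sets were called higher. Leaving out the solvent array of that dose, which leaves 1 array there, ended the call. Without H2O2, UGT73B1 was higher with BL than with solvent, at 9.20 ± 0.12 (SD, n = 3) against 8.72 ± 0.11 (SD, n = 3), the opposite direction from UGT73B5 and GT72B1 (log2 difference 0.48, limma adjusted p = 0.502, and 0.43 without solvent replicate 3, limma adjusted p = 0.378). Of all probe sets, 14.4% had every BL array above every solvent array, as UGT73B1 did.

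The other 4 UGT73 genes did not pass the filter, so that no test was made. UGT73C1 and UGT73C2 had means of 2.12 and 2.23 at 0 mM, UGT73D1 had 2.59, and none of these was above 2.57 at 1 mM. UGT73C7 ranged from 2.21 to 3.42 at 0 mM and from 3.47 to 4.73 with H2O2.

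Of 7 other UGT72 genes, 4 had a probe set of their own and 2 passed the filter. UGT72E1, which glucosylates lignin precursor aldehydes, fell from a mean of 10.27 ± 0.61 (SD, n = 6) at 0 mM to 9.16 at 1 mM (limma adjusted p = 0.0431). That call was lost when any of 14 of the 16 arrays was left out, with an adjusted p of up to 0.29, and without the filter on low values. UGT72E2, which glucosylates lignin precursor alcohols, had a log2 difference of -0.80 at 1 mM (limma adjusted p = 0.357). UGT72B3 did not pass the filter, with means of 3.32 at 0 mM, 3.12 at 1 mM and 4.51 at 100 mM.

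Of 12 genes for glycosyltransferases of hormones, 8 had a probe set of their own and 6 passed the filter. At 1 mM 0 were called by limma, with a median log2 difference of 0.46 against -0.10 over all probe sets. At 100 mM 1 was called higher and 1 lower, where 8.24% of all probe sets were called higher and 7.26% lower. The abscisic acid glucosyltransferase gene UGT71C5 fell by 0.55 at that dose (SE 0.12, limma adjusted p = 0.014), and UGT76C2, which glucosylates cytokinins, rose by 0.66 (SE 0.19, limma adjusted p = 0.0394). UGT71C5 was also called lower at 25 mM (-0.48, limma adjusted p = 0.0256) and 50 mM (-0.54, limma adjusted p = 0.0161). The share of all probe sets called lower at these doses was not counted. Larger differences in UGT76B1 and UGT71B6 were called at no dose. UGT76B1 had -1.73 at 50 mM (SE 0.54, limma adjusted p = 0.054), and UGT71B6 had 1.65 at 1 mM (SE 0.91, limma adjusted p = 0.225). UGT76C2 was also called higher at 5 mM (0.58, limma adjusted p = 0.0469), where 9.75% of all probe sets were. The 100 mM call of UGT71C5 was lost without either 100 mM array, which leaves 1 array at that dose. That of UGT76C2 was lost when any of 12 of the 16 arrays was left out, at up to 0.317, and without the filter.

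**Figure D4:**
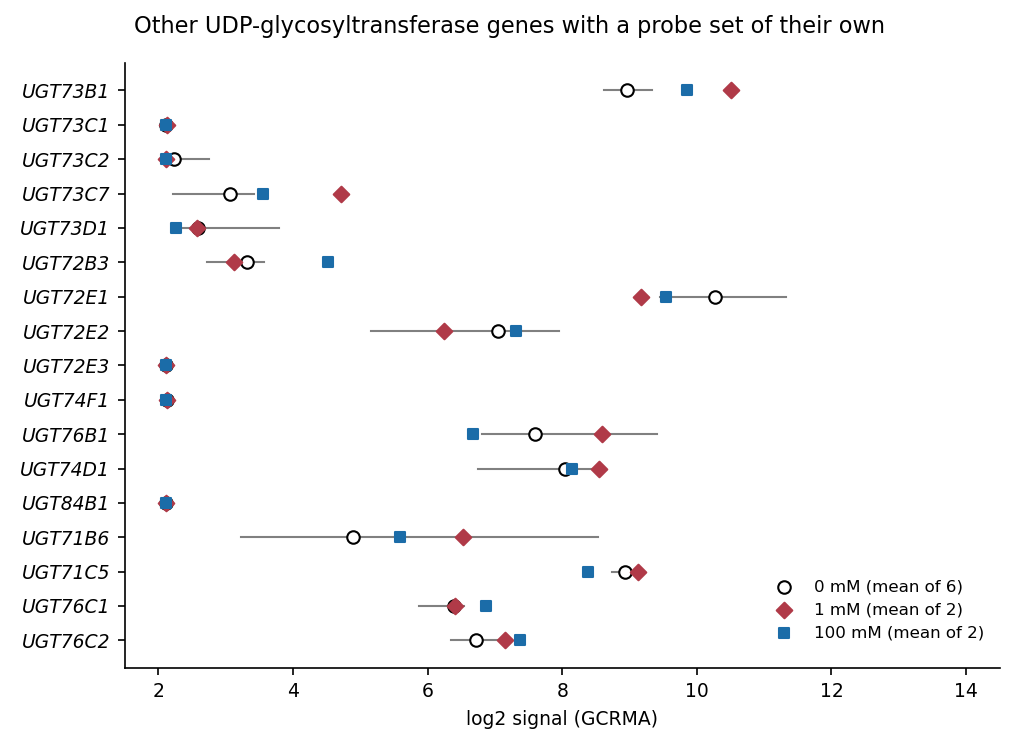
Mean log2 signal of 17 other UDP-glycosyltransferase genes of the UGT73 and UGT72 families and of hormone metabolism at 0 mM (open circles, n = 6, with a line from the lowest to the highest array), 1 mM (diamonds, n = 2) and 100 mM H2O2 (squares, n = 2). UGT73B1 lies at 8.96, 10.50 and 9.86, while UGT73C1, UGT73C2, UGT72E3, UGT74F1 and UGT84B1 stay between 2.12 and 2.23 at all 3 doses.

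Other detoxification genes were followed from a list of 40, of which 3 had a probe set of their own and all 3 passed the filter. AER, for a reductase of reactive alkenals, rose by 3.16 at 1 mM (SE 0.27, limma adjusted p = 2.45e-05) and had 0.58 at 100 mM (limma adjusted p = 0.18). It was also called higher at 5 and 25 mM, by 1.69 and 1.01. At 1, 5 and 25 mM, 9.60%, 9.75% and 8.19% of all probe sets were called higher. The glutathione S-transferase gene GSTU25 lay near the floor on all arrays at 0 mM, from 2.12 to 2.58, and passed the filter only through its H2O2 arrays, so its call is not counted. Its mean log2 signal was 9.09 at 1 mM and 6.84 at 100 mM. GSTU26, a second gene of that family, had log2 differences of -0.10 at 1 mM and 1.11 at 100 mM and was called at neither dose. It was called higher at 50 mM, by 1.25 (limma adjusted p = 0.046), where 7.40% of all probe sets were. Its fitted change from 1 to 100 mM was 1.37 (SE 0.23), a rise where the 3 genes fell. Of 16 genes that supply UDP-sugars, only USP, for a UDP-sugar pyrophosphorylase, had a probe set of its own. It rose by 0.35 at 1 mM (limma adjusted p = 0.0428), a call lost when any of 15 of the 16 arrays was left out.

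Genes with the profile most like each of the 3 were found by Pearson correlation over the 12 group means among 7039 probe sets with 1 gene. The points share the arrays and the order of doses, and the values are a description. UGT73B4 was closest to AT2G41640 (r = 0.991), then to GT72B1 (0.989), AT3G55840 (0.986), AT1G15430 (0.983) and AT4G25580 (0.982), while UGT73B5 came 34th (0.954). The 0 mM solvent mean of UGT73B4, 3.20, was raised by solvent replicate 3, at 4.80 against 2.45 and 2.37. All of these genes but GT72B1 and UGT73B5 were picked with their highest 0 mM value on that array too. The list was not made without that array. AT2G41640 was higher by a log2 of only 1.74 at 1 mM. GT72B1 was closest to AT3G55840 (0.998), GSTU25 (0.995), GRX480 (0.990), a glutaredoxin gene, UGT73B4 (0.989) and CML37 (0.987), a calmodulin-like gene. AT3G55840 had a mean of 3.99 ± 1.06 (SD, n = 6) at 0 mM, 9.11 at 1 mM and 7.32 at 100 mM.

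UGT73B5 had other neighbours by this measure, AT4G01870 (0.994), AT1G76600 (0.993), AT2G31945 (0.992), the zinc finger transcription factor gene STZ (0.989) and the ubiquitin ligase gene PUB24 (0.986). In this list GT72B1 came 39th and UGT73B4 49th. STZ had log2 signals of 9.04, 7.38 and 11.07 in the solvent replicates and 6.64, 6.43 and 6.67 with BL at 0 mM. PUB24 had 6.09, 4.60 and 8.20 with solvent and 4.00, 3.99 and 3.82 with BL. In all 5 genes, as in UGT73B5, solvent replicate 3 was highest and solvent replicate 2 lowest of the solvent arrays. Every BL array was lower still in AT4G01870, STZ and PUB24. In AT1G76600 and AT2G31945 BL replicate 3 was above solvent replicate 2, at 9.01 against 8.83 and 7.78 against 7.48. The 12 group means that picked these genes include both 0 mM groups, so the choice favoured 0 mM values like those of UGT73B5. Their BL differences at 0 mM are therefore a description and no test. The log2 differences between BL and solvent were -2.58 for STZ and -2.36 for PUB24. Without solvent replicate 3 they were -1.63 and -1.41.

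Over the 10 arrays from 1 to 100 mM alone the lists changed. UGT73B5 was closest to AT1G70420 (r = 0.994), the small GTPase gene SGP2 (0.991), AT1G76600 (0.991), AT3G04640 and AT5G10830 (both 0.990). GT72B1 was closest to AT1G05575 (0.995), AT3G55840 (0.992), GRX480 (0.990), PUB24 (0.989) and AT1G66090 (0.987). UGT73B4 had lower values, with AT1G52510 first (0.973), followed by AT1G28190, AT3G59080, AT1G13880 and AT1G03730 (0.963 to 0.961). AT1G52510 had 8.88 ± 0.42 (SD, n = 6) at 0 mM and 9.37 at 1 mM, so a gene can share the course among the H2O2 doses with UGT73B4 while differing little from 0 mM. AT1G76600 stood in both lists of UGT73B5, and AT3G55840 and GRX480 in both lists of GT72B1, while UGT73B4 had no gene in both.

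**Figure D5:**
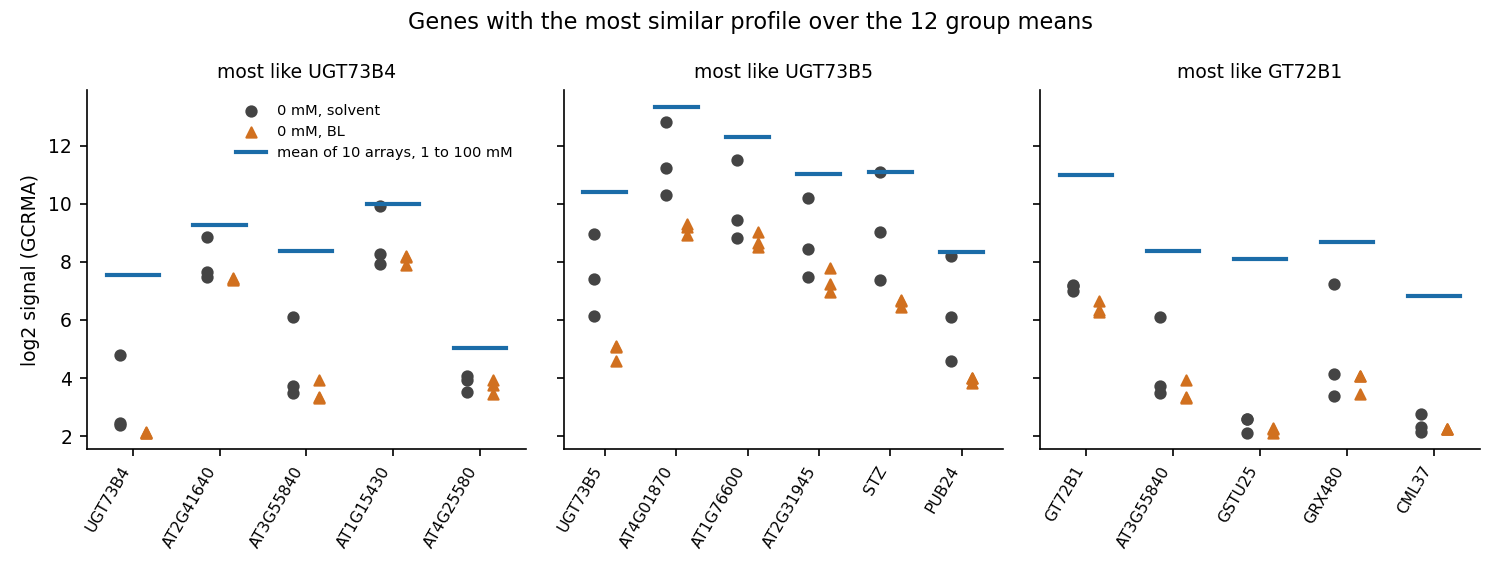
Log2 signal at 0 mM with solvent (circles) and with BL (triangles), and the mean of the 10 H2O2 arrays (bars), for each of the 3 genes and the genes most like it over the 12 group means, other than the 3 themselves. In the UGT73B5 panel the circles of STZ reach 11.07 and those of PUB24 reach 8.20, while all triangles of these genes lie below their circles. The 12 group means that picked the genes include both 0 mM groups.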

How the data were processed

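RNA of whole seedlings was extracted with TRIzol and biotin-labelled with a 3' one-cycle kit, per the labels' protocols. The authors deposited a log2 value for each probe set on each array, computed with GCRMA per the submitters' processing notes. The scale was judged from the values, and GCRMA's version and the genome build are not given in the sources used here. Arrays have no read depth. Of 22810 entries, 64 controls were left out, and the 13140 probe sets with at least 5 on at least 2 arrays were tested in limma 3.58.1 (R 4.3.3). "Called" means an adjusted p (Benjamini-Hochberg over all 13140) below 0.05. UGT73B4 passed the filter only through its H2O2 arrays. BL was tested on the 6 arrays at 0 mM. With H2O2 it was tested in a fit to 16 arrays with dose as a factor and a BL term each for 0 mM and the higher doses. Slopes were fitted over log2 dose on 10 arrays. The annotation gave 13513 probe sets 1 gene, 503 several and 8730 none, and 13436 of the first matched RefSeq's TAIR10.1 gene table. The 3 genes, the lists and the tests were chosen with earlier results of these data known. Named are the 3 genes, their neighbours, relatives and list genes, and the 5 most similar genes by each measure. Alternatives were other filters and normalizations, a variance trend, a replicate block, other dose scales and leaving out each array. The code was tested on simulated data. No sequences were used here.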

Additional observations from a re-analysis of the deposited data

How the results depend on the processing

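For the 3 genes, the differences from 0 mM and the changes from 1 to 100 mM kept their direction in every alternative run. The number of arrays limits the precision, and doses above 0 mM have no replicate within a BL state. For BL at 0 mM, 3 probe sets were called, but 0 with a variance trend, 0 with the replicate block and 100 in the fit to all 16 arrays, where GT72B1 (-0.70, adjusted p = 0.0499) was called too. Leaving out 1 array gave 0 to 93 (93 without solvent replicate 2). Samples of the same number at 0 mM had correlations of their deviations of 0.183, 0.108 and -0.0657. The array of the same number was the best match for replicates 1 and 2 but not for replicate 3. These values do not settle whether equal numbers mark pairs. With the replicate block the values at 0 mM stayed -2.60 for UGT73B5 and -0.70 for GT72B1 (adjusted p = 0.523 each), and no call on the 3 genes differed under it. For the BL difference with H2O2 minus that without, 8 calls became 13 without a filter, 4 with a minimum of 6, 15 with quantile normalization, 5 with a variance trend and 3 to 1786 with 1 array left out (1786 without solvent replicate 2). Its value ranged from -0.10 to 1.12 for UGT73B4, whose values at 0 mM lie at the floor and carry no BL response, and from 1.78 to 3.19 for UGT73B5. Leaving out 1 array, the BL difference with H2O2 ranged from -0.16 to 0.0091 for UGT73B5 and from -0.059 to 0.048 for GT72B1. The slope difference ranged from -0.28 to 0.96 for UGT73B4, from -0.64 to 0.31 for UGT73B5 and from -0.73 to 0.84 for GT72B1. Calls against 0 mM ranged from 676 to 5981 at 1 mM, 879 to 5984 at 5 mM, 300 to 4928 at 25 mM, 314 to 4584 at 50 mM and 435 to 5034 at 100 mM, each highest without solvent replicate 3. The causes were not tested.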

Other observations

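Lignin precursors are among the acceptors of GT72B1, and 5 of 25 phenylpropanoid and flavonoid genes had a probe set of their own. HCT and CCR2, which act in making lignin precursors, passed the filter, as did a probe set annotated to CCOAMT. CCOAMT is counted among the 5 because an alias matched it to CCoAOMT1 of the list, and it may be another gene. None of these was called by limma at 1 or 100 mM, where 9.60% and 8.24% of all probe sets were called higher. On the log2 scale CCOAMT still lay 3.43 and 2.11 above 0 mM at these doses, and CCR2 2.30 and 2.12. HCT lay 0.61 and 0.49 above. CCR2 reached 4.03 at 5 mM, with a limma adjusted p of 0.0555. Standard errors were 1.56 for CCOAMT and 1.38 for CCR2, so their missing calls are not read as a lack of response. CCOAMT had a mean log2 signal of 7.93 ± 3.69 (SD, n = 3) with solvent and 4.03 ± 0.19 (SD, n = 3) with BL at 0 mM. The difference was -3.91 (SE 1.74, limma adjusted p = 0.502), or -2.09 without solvent replicate 3 (limma adjusted p = 0.505). CCR2 had 6.12 ± 3.66 (SD, n = 3) and 3.41 ± 0.16 (SD, n = 3), a difference of -2.72 (SE 1.72, limma adjusted p = 0.508), or -0.65 without solvent replicate 3 (limma adjusted p = 0.62). Both had a far wider spread among the solvent arrays than among the BL arrays, as did UGT73B5. Of 25 brassinosteroid genes, 1 had a probe set of its own, EXPA8, and it did not pass the filter.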
